A study of Mus musculus with 4 samples.

Results

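The citric acid cycle oxidizes acetyl groups to carbon dioxide in the mitochondrial matrix and passes the electrons to the respiratory chain. Pyruvate reaches it through the mitochondrial pyruvate carrier and the pyruvate dehydrogenase complex (PDH), which PDH kinases switch off and PDH phosphatases switch on. Other enzymes refill the cycle or draw citrate and malate from it for the synthesis of lipids, nucleotides and amino acids, on which dividing leukemic progenitors depend. The 35 genes described here were taken by symbol from a list of cycle enzymes, PDH subunits and regulators, the pyruvate carrier and the enzymes that feed or drain the cycle. Each symbol matched 1 Ensembl gene of the deposited table, so 35 of its 23552 genes were members. All of them had values, and 34 had a mean expression over the 4 libraries of at least 0.5 FPKM (fragments scaled to exon length and library size), the minimum for testing.

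RNA-Seq was carried out on c-Kit+ leukemic cells enriched from the bone marrow of moribund C57BL/6 mice with acute myeloid leukemia (AML) driven by the MLL-AF9 fusion. The control cells (2 libraries, replicates 3 and 4) overexpressed eGFP, and the SUV-OE cells (2 libraries, replicates 2 and 3) overexpressed Suv39h1, an H3K9 methyltransferase, together with eGFP. Both groups thus carried MLL-AF9 and an eGFP virus, and by the study's methods eGFP+ cells were sorted and transplanted into sublethally irradiated female recipients, from which P1 c-Kit+ cells were taken. Suv39h1 had been cloned into an MSCV-IRES-EGFP plasmid, whose viral promoter is not restricted to one cell type. All 4 libraries were labelled RNA-seq batch 2, and the sources used here do not say whether each came from a separate mouse, so the p-values measure only the spread between these libraries. Whether lower expression came from fewer cells expressing a gene or from less RNA per cell cannot be told apart in bulk RNA.

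The libraries held 16873770 to 19453058 fragments by the divisor of their FPKM values, which was worked back from FPKM and exon length. Suv39h1 measured 12.4 FPKM in both control libraries, against 75.3 and 81.2 with SUV-OE, in the direction the labels give. Of 8 leukaemic progenitor genes, among them Kit, Mpo and Elane, 2 were lower and 6 higher in SUV-OE. Kit itself measured 20.4 and 19.2 FPKM in control, against 28.6 and 25.4 with SUV-OE, and Flt3 measured 10.3 and 9.08 against 6.20 and 4.18. Markers of other cells also differed between the groups. All 10 late neutrophil genes were higher in SUV-OE, with a summed FPKM of 754 and 2392 in control, against 6658 and 8106 with SUV-OE, to which S100a8 and S100a9 contributed most. Of 10 B-lymphoid genes, 9 were higher, with sums of 19.6 and 29.3 in control, against 45.0 and 107.8 with SUV-OE. All 10 erythroid genes were higher and 5 lay above both controls in both SUV-OE libraries, and Car1 and Car2 rose (limma adjusted p = 0.0280 and 0.0214). The erythroid sum, mostly hemoglobin, was 21.5 and 143 in control, against 147 and 119 with SUV-OE. Of 8 monocyte and macrophage genes, 6 lay above both controls in both SUV-OE libraries, with a median log2 fold change of 0.53 over the 8. Their sum, mostly Ly6c2, was 369 and 657 against 380 and 412. Of 14 proliferation genes, 13 were lower in SUV-OE, and their sum was 1310 and 1177 in control, against 875 and 979 with SUV-OE. Mki67 alone was higher. T and NK genes gave 73.7 and 113 against 77.5 and 83.5, nearly all of it Nkg7, with Cd8a at 0 in both control libraries. Endothelial genes gave 17.0 and 24.0 against 71.6 and 64.9, nearly all of it Pecam1. The part of these shifts in the results below was not tested.

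Most of the 35 genes had lower values in SUV-OE, by modest amounts. Of the 34 tested members, 31 had a log2 fold change below 0, as did 53.0% of all 13736 tested genes. The median log2 fold change was -0.29 over the members and -0.02 over all tested genes, and the members ranged from -0.79 for Pdk3 to 0.21 for Pdk2. In 23 of the 34 members both SUV-OE libraries lay under both controls, an order found in 28.4% of all tested genes. The opposite order was found in 1 member, Idh1, and in 25.4% of all tested genes. Summed over the 35 genes, the FPKM was 1559 and 1534 in control, against 1235 and 1269 with SUV-OE. The FPKM of all genes summed to 356552 and 414940 in control, against 340958 and 373067 with SUV-OE. The members' sums were not scaled to these totals.

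No single member (0 of 34) was a differentially expressed gene (DEG) by limma, which required a log2 fold change of 1 or more in size beside a p-value under 0.05 after Benjamini-Hochberg adjustment. Over all tested genes 168 (1.22%) were DEGs, and 0.408% were DEGs with lower expression. At an adjusted p-value under 0.05 and any fold change, limma called 0 of 34 members and 1.29% of all tested genes. At an adjusted p-value under 0.1 it called 1 member, Pdk3, against 4.85% of all tested genes and 1.7% in the lower direction, and it called 0 members at that threshold without the filter or with any library left out. An unadjusted p-value under 0.05 with lower expression was reached by 11 members and by 10.4% of all tested genes, and with higher expression by 0 members and by 10.3%. In the lower direction this count was 1 without SUV-OE replicate 2 (2.89% of all genes), 1 without SUV-OE replicate 3 (3.59%), 12 without control replicate 3 (12.8%), 15 without control replicate 4 (14.9%) and 5 under quantile normalization (9.39%). The difference between the groups exceeded the difference between both controls in 21 members and was at most as large in 13. It exceeded both within-group differences in 19 members. The same counts were not made over all tested genes, so they cannot be read against a background share. On the recovered reads, limma-voom gave 0 DEGs among the members, against 4.72% of 14268 tested genes, and called 1 member, Pdk3, at any fold change, against 6.23% of all genes and 1.85% in the lower direction. At an adjusted p-value under 0.1 limma-voom called 4 members, all lower, against 12.2% of all genes and 4.51% in the lower direction, and for 3 of them (Me2, Idh3a and Sdhd) the recovered reads were approximate.

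**Figure D1:**
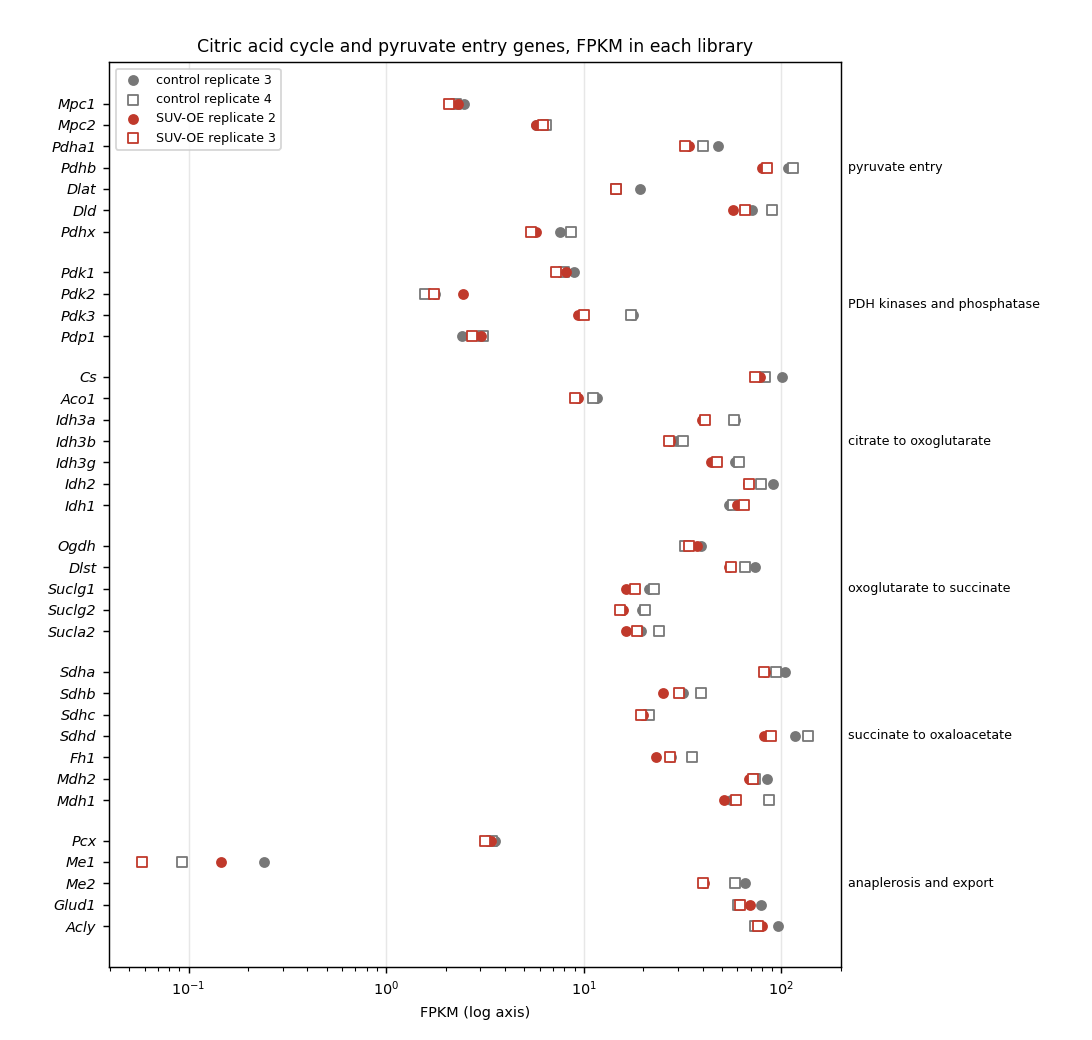
FPKM of each of the 35 genes in each library on a log axis, ordered by role. Grey marks are the 2 control libraries and red marks the 2 SUV-OE libraries, and in 23 of the 34 tested genes both red marks lie left of both grey marks.

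Highly expressed genes as a whole also had lower values in SUV-OE. Of the 35 genes, 27 had a mean FPKM of at least 10 and 14 of at least 50. Over all genes averaging 50 FPKM or more, the median log2 fold change was -0.20, and 77.2% were below 0. In the 14 members above that level the median was -0.32. Quantile normalization, which gives the libraries the same distribution of values, moved the median of all genes above 50 FPKM to -0.03, that of the 14 members above that level to -0.12 and that of the 34 members to -0.16. Under it 27 members were below 0, and in 14 the SUV-OE libraries lay under both controls, against 27.3% of all tested genes. Under median-of-ratios scaling the members' median was -0.27, with 20 members in that order against 26.4% of all genes. Under quantile normalization the log2 fold change was -0.75 for Pdk3, -0.44 for Me2 and -0.36 for Idh3a. Other members came close to 0 under it, with Idh2 at -0.097, Cs at -0.060, Sdha at -0.055 and Idh3b at -0.040.

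**Figure D2:**
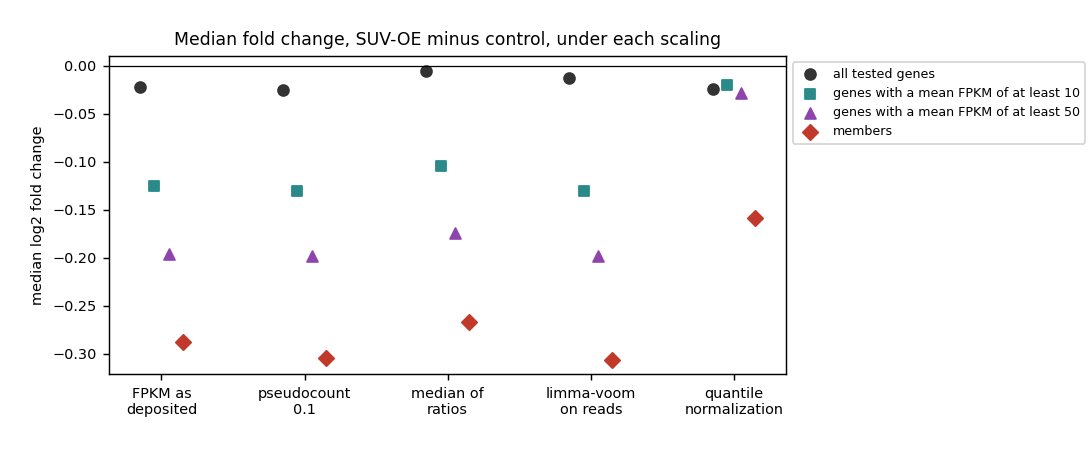
Median log2 fold change (SUV-OE minus control, vertical axis) of all tested genes, of genes averaging 10 or 50 FPKM or more, and of the 34 tested members, under 5 treatments of the values. The members' median lies below the others in each, between -0.31 and -0.16, and is closest to 0 after quantile normalization.

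The PDH regulators held the member with the largest difference. PDH kinases phosphorylate the complex and so keep pyruvate out of the cycle. Pdk3 (ENSMUSG00000035232, mm10 chromosome X from 93764607 to 93832201) measured 17.8 and 17.3 FPKM in control, against 9.33 and 10.1 with SUV-OE, from 748 to 886 reads in control and 424 to 460 in SUV-OE. The SUV-OE libraries thus lay far below both controls, at 55.4% of the control mean, and the libraries of each group lay close together. The log2 fold change was -0.79 (standard error, SE, 0.11, 95% interval -1.08 to -0.51, limma adjusted p = 0.0576). By limma-voom it was -0.85 (adjusted p = 0.0232), and over all alternatives the adjusted p-value ranged from 0.0232 to 0.439. Pdk1, the kinase gene induced by hypoxia, measured 8.91 and 7.92 FPKM in control, against 8.15 and 7.28 with SUV-OE, so the groups overlapped. Its log2 fold change had a 95% interval of -0.44 to 0.22. Pdk2, the kinase expressed in most tissues, measured 1.77 and 1.57 FPKM in control, against 2.46 and 1.74 with SUV-OE, on only 84 to 138 reads. Its log2 fold change was 0.21, and 0.083 under quantile normalization. With 1 library left out it ranged from 0.038, without SUV-OE replicate 2, to 0.37, without SUV-OE replicate 3. Pdp1, a catalytic PDH phosphatase subunit, had 2.42 and 3.09 against 3.01 and 2.73, with a 95% interval of -0.35 to 0.45 and a log2 fold change of 0.05 that turned to -0.057 under quantile normalization.

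Because FPKM is per exon length, the kinase genes can be set side by side within a library. Pdk3 made up 62.5% and 64.6% of the summed FPKM of Pdk1, Pdk2 and Pdk3 in control, against 46.8% and 52.8% with SUV-OE. The share of Pdk1 was 31.3% and 29.6% in control, against 40.9% and 38.1% with SUV-OE. The sum of the 3 kinase genes was 28.5 and 26.8 in control, against 19.9 and 19.1 with SUV-OE, so it was lower in both SUV-OE libraries. These shares and sums are given as a description and were not tested.

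**Figure D3:**
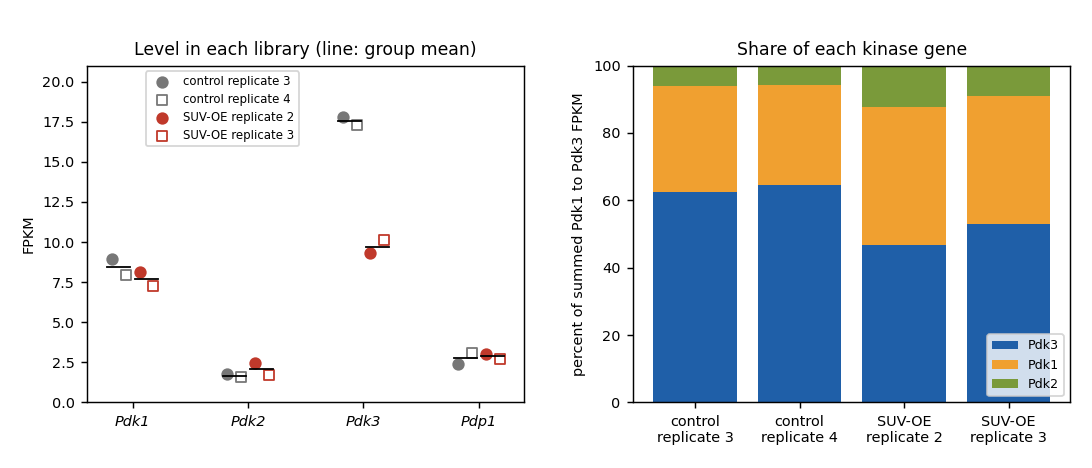
Left, FPKM of the PDH kinase genes and of Pdp1 in each library, with lines at the group means. Right, the percent of the summed Pdk1, Pdk2 and Pdk3 FPKM held by each gene in each library, in which Pdk3 takes 62.5% and 64.6% in control, against 46.8% and 52.8% with SUV-OE.

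The promoters of the 3 kinase genes are shown because these paralogs differed in their values. Each line gives the 250 bases before the first RefSeq start (GRCm38.p6, the mm10 assembly), or for Pdk3 the 199 of them that lie outside the GENCODE gene, with capitals marking the letters of the motifs searched on both strands.
Pdk1 (chr2:71872974-71873223, plus strand): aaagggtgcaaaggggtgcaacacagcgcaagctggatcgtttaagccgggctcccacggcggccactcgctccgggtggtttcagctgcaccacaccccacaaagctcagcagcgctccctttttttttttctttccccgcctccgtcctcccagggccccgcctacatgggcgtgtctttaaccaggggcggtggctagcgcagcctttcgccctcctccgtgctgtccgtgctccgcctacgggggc
Pdk2 (chr11:95041372-95041621, minus strand): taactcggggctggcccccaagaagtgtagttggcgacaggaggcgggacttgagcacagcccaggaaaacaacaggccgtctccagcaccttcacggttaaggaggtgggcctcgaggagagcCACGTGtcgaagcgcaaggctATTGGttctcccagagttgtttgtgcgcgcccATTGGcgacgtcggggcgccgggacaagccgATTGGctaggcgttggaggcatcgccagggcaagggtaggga
Pdk3 (chrX:93832202-93832400, minus strand): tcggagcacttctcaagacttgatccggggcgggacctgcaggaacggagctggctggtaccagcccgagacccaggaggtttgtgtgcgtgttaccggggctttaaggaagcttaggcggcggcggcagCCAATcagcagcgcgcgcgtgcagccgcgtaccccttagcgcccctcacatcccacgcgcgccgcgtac
The capitals in Pdk3 are 1 NFY motif (CCAAT) and those in Pdk2 are 1 MYC motif (CACGTG) and 3 NFY motifs on the other strand, while Pdk1 held none of the motifs searched. Over the window from 250 bases before to 50 after the start, 31 of the 35 members had an entry, and Pdp1, Idh3a, Sdhc and Me2 had none. CCAAT was found for 20 of the 31 members and 41.1% of all genes (37.4% of all 32851 windows), and the ETS motif CCGGAAG for 7 members and 9.93% of genes (8.86% of windows). The median GC content was 62.0% over the windows of the members and 52.7% over all windows. The NRF1 motif GCATGCGC was found for 3 members (3.05% of all genes), CACGTG for 3 (8.09%), the CRE motif TGACGTCA for 2 (2.03%), the YY1 motif AANATGGCG for 2 (2.76%), the ERR motif TCAAGGTCA for Sdhd (0.466%) and the E2F motifs TTTCGCGC or TTTGGCGC for Dlst (0.929%). These are matches of letters on either strand, and matches that overlap were all kept.

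Of the pyruvate carrier and PDH subunits, all 7 genes had log2 fold changes below 0, and in 4 both SUV-OE libraries lay below both controls, as in 28.4% of all tested genes. The catalytic subunit genes Pdha1 and Pdhb encode the pyruvate decarboxylase of the complex. Pdha1 measured 48.1 and 40.2 FPKM in control, against 34.1 and 32.5 with SUV-OE (log2 fold change -0.39, SE 0.14, limma adjusted p = 0.212). Pdhb measured 109 and 114 FPKM in control, against 80.2 and 84.9 with SUV-OE (-0.43, SE 0.13, limma adjusted p = 0.173). For both, the groups did not overlap, and under quantile normalization they were at -0.26 and -0.23. Pdhx, the gene of the protein that anchors the dihydrolipoamide dehydrogenase, had 7.57 and 8.63 against 5.74 and 5.42 (-0.47, SE 0.12, limma adjusted p = 0.149). Dld, the dehydrogenase that PDH shares with the oxoglutarate dehydrogenase complex, had 71.2 and 89.4 against 56.9 and 65.5, with a 95% interval of -0.82 to 0.06. Dlat, the acetyltransferase core, measured 19.3 and 14.6 FPKM in control, against 14.4 and 14.6 with SUV-OE, so only control replicate 3 stood above the rest. The carrier genes Mpc1 and Mpc2 were low. Mpc1 had 2.47 and 2.25 against 2.30 and 2.08, and Mpc2 had 5.76 and 6.43 against 5.76 and 6.22, with 95% intervals of -0.43 to 0.28 and of -0.34 to 0.30. In stretches of 60 bases, 24.2% of the transcript sequence of Mpc1, 11.8% of Pdha1 and 9.41% of Pdhb was shared with other annotated genes, and the kit does not tell Pdha1 from Map3k15 on the other strand, so these values are uncertain.

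Between citrate and oxoglutarate, 6 of 7 genes had both SUV-OE libraries below both controls, against 28.4% of all tested genes. Cs, the citrate synthase that opens the cycle, measured 101 and 82.4 FPKM in control, against 77.9 and 73.7 with SUV-OE. Idh3a, the catalytic subunit of the NAD-dependent isocitrate dehydrogenase (mm10 chromosome 9, from 54586334 to 54604661), measured 58.4 and 58.0 FPKM in control, against 39.7 and 41.1 with SUV-OE. Its groups stood well apart (log2 fold change -0.52, SE 0.11, 95% interval -0.81 to -0.23, limma adjusted p = 0.110). The regulatory subunit genes differed less, with Idh3g at 58.5 and 60.9 against 44.3 and 47.5 and Idh3b at 29.5 and 31.8 against 27.2 and 27.1. The ratio of Idh3a to Idh3b FPKM was 1.98 and 1.83 in control, against 1.46 and 1.52 with SUV-OE. These are the Idh3 genes that differed most and least, and their ratio was not tested. Aco1, the cytosolic aconitase that doubles as an iron sensor, had 11.7 and 11.1 against 9.36 and 9.10 (log2 fold change -0.28, SE 0.11, limma adjusted p = 0.244).

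The NADP-dependent isocitrate dehydrogenase genes differed in sign, by amounts that depended on the scaling. Idh2, the mitochondrial enzyme, measured 90.8 and 79.3 FPKM in control, against 67.8 and 68.7 with SUV-OE, with a 95% interval of -0.66 to 0.04. Idh1, the cytosolic enzyme, measured 54.4 and 56.8 FPKM in control, against 59.5 and 64.8 with SUV-OE, with a log2 fold change of 0.16 (95% interval -0.16 to 0.47, limma adjusted p = 0.518), and of 0.095 without SUV-OE replicate 3. Idh1 was the only tested member with both SUV-OE libraries above both controls. Under quantile normalization Idh1 was at 0.34 and Idh2 at -0.097. The Idh1 to Idh2 ratio was 0.600 and 0.717 in control, against 0.877 and 0.944 with SUV-OE.

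From oxoglutarate to succinate, all 5 genes had log2 fold changes below 0, that of Ogdh at -0.0019, which turned to 0.12 under quantile normalization and 0.019 under median-of-ratios scaling. Ogdh, the decarboxylase of the oxoglutarate dehydrogenase complex, measured 39.1 and 32.8 FPKM in control, against 37.3 and 34.2 with SUV-OE, so the groups overlapped fully (95% interval -0.36 to 0.36). Dlst, the succinyltransferase of the same complex, had 73.4 and 65.4 against 54.3 and 55.6 (log2 fold change -0.33, SE 0.13, limma adjusted p = 0.241), and was at -0.155 under quantile normalization. The genes of succinyl-CoA ligase, which makes a nucleoside triphosphate within the cycle, were lower in both SUV-OE libraries. Suclg1, the subunit common to both forms, had 21.3 and 22.8 against 16.4 and 18.1, the GTP-forming Suclg2 had 19.7 and 20.4 against 15.8 and 15.3, and the ATP-forming Sucla2 had 19.6 and 24.1 against 16.4 and 18.6. Sucla2 made up 49.8% and 54.1% of the Sucla2 and Suclg2 sum in control, against 50.9% and 54.9% with SUV-OE, so the balance of the forms overlapped between groups. Of the Suclg2 transcript sequence, 14.2% was shared with another annotated gene.

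From succinate to oxaloacetate, 6 of 7 genes had both SUV-OE libraries below both controls, against 28.4% of all tested genes. Under quantile normalization Sdhd was at -0.35, Sdhc at 0.036 and Mdh2 at 0.048. Succinate dehydrogenase is also complex II of the respiratory chain. Sdhd, a membrane anchor subunit (mm10 chromosome 9, from 50596357 to 50603812), measured 118 and 136 FPKM in control, against 81.9 and 89.3 with SUV-OE. Both controls stood well above SUV-OE (log2 fold change -0.56, SE 0.15, 95% interval -0.94 to -0.18, limma adjusted p = 0.148). Sdhc, the other anchor subunit, had 19.99 and 21.4 against 19.9 and 19.5, a difference near 0 (95% interval -0.35 to 0.22). The Sdhd to Sdhc ratio was 5.89 and 6.37 in control, against 4.12 and 4.57 with SUV-OE. This pair differed most and least among the succinate dehydrogenase genes, and the ratio was not tested. The flavoprotein gene Sdha had 104 and 93.7 against 82.5 and 82.0, and the iron-sulfur subunit gene Sdhb had 32.0 and 39.4 against 25.2 and 30.5. Fh1, the fumarase, had 27.7 and 35.3 against 23.3 and 27.5, with SUV-OE replicate 3 just under control replicate 3. The mitochondrial malate dehydrogenase Mdh2 had 84.9 and 73.4 against 69.0 and 72.2 (95% interval -0.52 to 0.20). The cytosolic Mdh1 measured 56.0 and 86.3 FPKM in control, against 51.4 and 58.9 with SUV-OE, so control replicate 4 stood apart and the groups overlapped. Sdhd and Dlat lie 30821 bases apart on chromosome 9. Without strand, reads of Fh1, Mdh1, Idh3b and Pcx cannot be told apart from those of Kmo, Wdpcp, Nop56 and Lrfn4 where these genes overlap on the other strand.

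Of the tested enzymes that refill or drain the cycle, Me2 differed most. Me2, the mitochondrial malic enzyme that makes pyruvate from malate, measured 65.3 and 58.3 FPKM in control, against 40.9 and 40.0 with SUV-OE. Both SUV-OE libraries lay well below both controls, at 65.5% of the control mean (log2 fold change -0.60, SE 0.12, 95% interval -0.92 to -0.28, limma adjusted p = 0.102). Its cytosolic paralog Me1 measured 0.240 and 0.0924 FPKM in control, against 0.146 and 0.0585 with SUV-OE, on 4 to 18 reads, and was not tested. Acly, which turns exported citrate into acetyl-CoA, had 96.7 and 73.8 against 80.4 and 76.4. Glud1, which feeds glutamate into the cycle and shares 5.67% of its transcript sequence with pseudogenes, had 79.2 and 60.5 against 69.3 and 62.2. In both, control replicate 3 was highest and control replicate 4 lowest, and under quantile normalization both were above 0, at 0.11 and 0.12. Pcx, the pyruvate carboxylase, was low throughout, at 3.56 and 3.44 against 3.42 and 3.16.

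**Figure D4:**
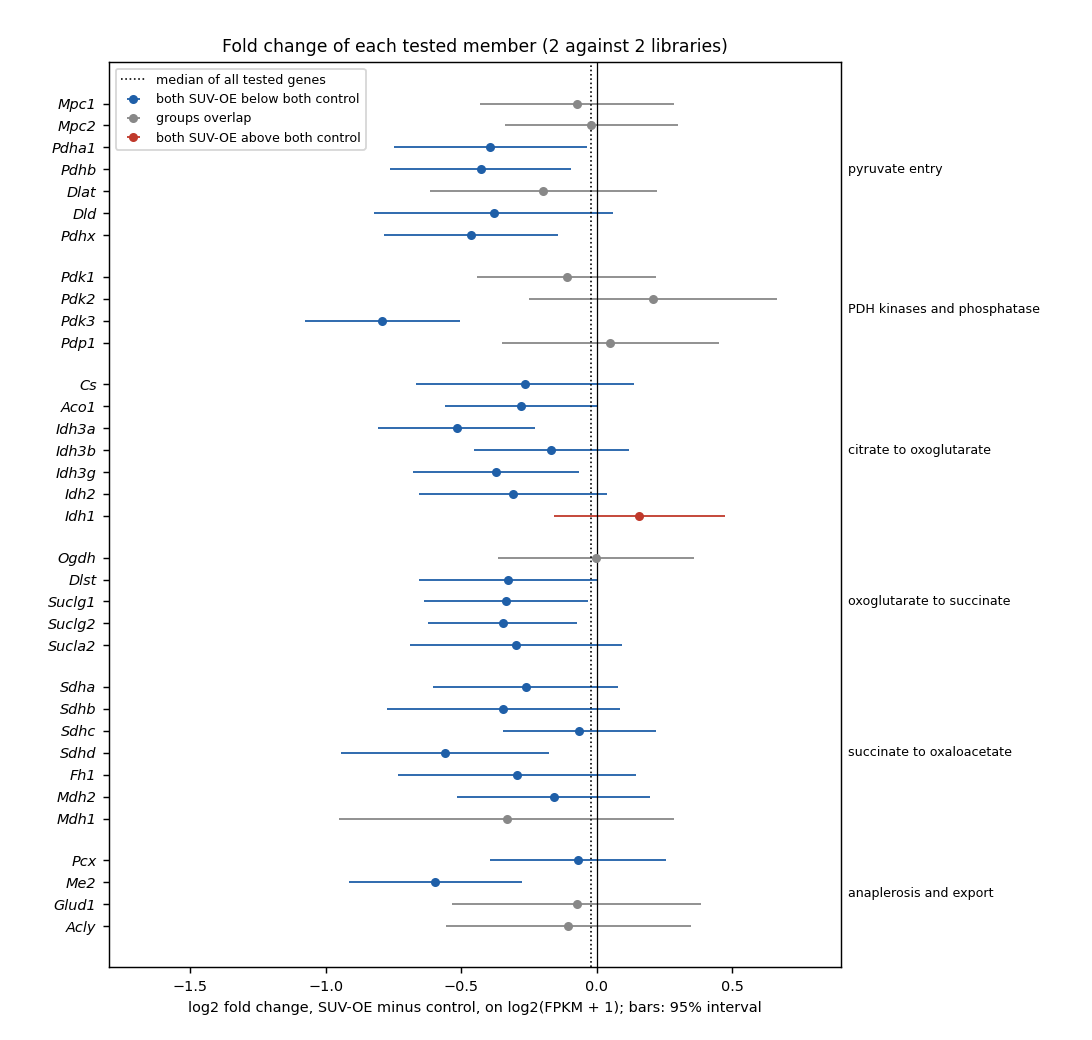
Log2 fold change of each of the 34 tested genes (SUV-OE minus control, on the log2(FPKM + 1) scale) with 95% intervals, ordered by role. Blue marks genes with both SUV-OE libraries below both controls, and only Idh1 (red) has the opposite order, with an interval from -0.16 to 0.47.

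Other genes of the pathway were taken from 3 lists, of cycle paralogs with cofactor and assembly genes, of further PDH regulators, and of carriers and anaplerotic enzymes. Of 66 listed symbols 60 were in the table and 54 were tested, with a median log2 fold change of -0.22. Of these, 36 were below 0, in 26 the SUV-OE libraries lay under both controls (28.4% of all tested genes) and in 6 above both (25.4%). By limma 1 gene was a DEG and fell, Ogdhl, against 1.22% of all tested genes (0.408% lower), while unadjusted p-values under 0.05 were reached by 17 genes with lower expression (10.4% of all tested genes) and by 1 with higher (10.3%), Ldhb. Ogdhl, an Ogdh paralog best known from brain, measured 2.43 and 2.03 FPKM in control, against 0.163 and 0.196 with SUV-OE, from 196 and 142 reads and 12 and 14 reads. Both SUV-OE libraries were far below both controls (log2 fold change -1.45, SE 0.16, limma adjusted p = 0.0428). The log2(FPKM + 1) scale understates the change of low genes, and by limma-voom the log2 fold change was -3.59 (adjusted p = 0.00450). Over the alternatives its adjusted p-value ranged from 0.00450 to 0.255, and the call was lost with a pseudocount of 0.1 (adjusted p = 0.0516), without the filter (0.114) and with each of the 4 libraries left out in turn. Limma-voom called 4 neighbours, Ogdhl, Fdx1, Slc25a12 and Ldhb, against 4.72% of all genes. The level of Ogdhl was far below that of Ogdh, whose groups overlapped.

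The promoters of Ogdh and Ogdhl are shown since these paralogs differed in their values, as the 250 bases before the first RefSeq start (GRCm38.p6).
Ogdh (chr11:6291347-6291596, plus strand): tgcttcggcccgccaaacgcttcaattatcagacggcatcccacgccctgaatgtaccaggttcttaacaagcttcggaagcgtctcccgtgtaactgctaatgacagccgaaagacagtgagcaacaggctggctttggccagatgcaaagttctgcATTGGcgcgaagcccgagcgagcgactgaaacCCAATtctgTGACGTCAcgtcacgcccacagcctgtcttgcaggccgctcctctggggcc
Ogdhl (chr14:32321769-32322018, plus strand): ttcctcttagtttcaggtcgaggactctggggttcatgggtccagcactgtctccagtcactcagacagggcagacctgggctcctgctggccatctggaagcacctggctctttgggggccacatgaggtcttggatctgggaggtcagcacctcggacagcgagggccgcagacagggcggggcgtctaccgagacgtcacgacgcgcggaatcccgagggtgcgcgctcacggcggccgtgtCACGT
The capitals in Ogdh are 2 NFY motifs, 1 of them on the other strand, and 1 CRE motif, and those in Ogdhl are the first letters of 1 MYC motif that ends past the printed bases.

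The carriers and anaplerotic enzymes were split, with 14 of 25 tested genes lower, 11 higher and a median log2 fold change of -0.08. Among them, Slc25a12 and Slc25a13, the aspartate-glutamate carriers of the malate-aspartate shuttle, were lower in both SUV-OE libraries. Slc25a12 measured 29.9 and 23.6 FPKM in control, against 12.2 and 12.5 with SUV-OE (log2 fold change -1.04, SE 0.15, limma adjusted p = 0.0585), and Slc25a13 had 15.5 and 14.2 against 9.13 and 8.26 (limma adjusted p = 0.0780). Ldha, the main lactate dehydrogenase subunit gene, measured 330 and 332 FPKM in control, against 208 and 230 with SUV-OE (log2 fold change -0.60, SE 0.16, limma adjusted p = 0.156), while its paralog Ldhb had 1.08 and 2.19 against 4.45 and 5.30 (1.19, SE 0.24, limma adjusted p = 0.102). Asns, Pccb, Slc25a10 and Got1 were also lower in both SUV-OE libraries, with log2 fold changes of -0.76, -0.71, -0.60 and -0.39. Of the further PDH regulators, Pdpr was at -0.37 and Pdp2 at 0.17, and Pdk4 was at an FPKM of 0.146 and 0.0169 in control and at 0 in both SUV-OE libraries. Named after its values were seen, the ferredoxin gene Fdx1 had 41.0 and 41.8 against 19.1 and 22.3 (log2 fold change -0.97, SE 0.13, limma adjusted p = 0.0515). The lipoic acid synthase gene Lias, named on the same ground, had 8.31 and 8.95 against 5.93 and 6.24 (limma adjusted p = 0.144). Of other genes for the making or attachment of lipoic acid, Mcat, Gcsh and Lipt2 were at -0.43, -0.25 and -0.24, and Oxsm and Lipt1 at 0.09 and 0.28. Bola3 and Iscu, which serve the assembly of iron-sulfur clusters and were also named after their values were seen, were at -0.73 and -0.67. Of the same machinery, Iba57, Glrx5 and Nfu1 were at -0.43, -0.32 and -0.27 and Isca2, Nfs1 and Isca1 at -0.10, -0.09 and -0.09.

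**Figure D5:**
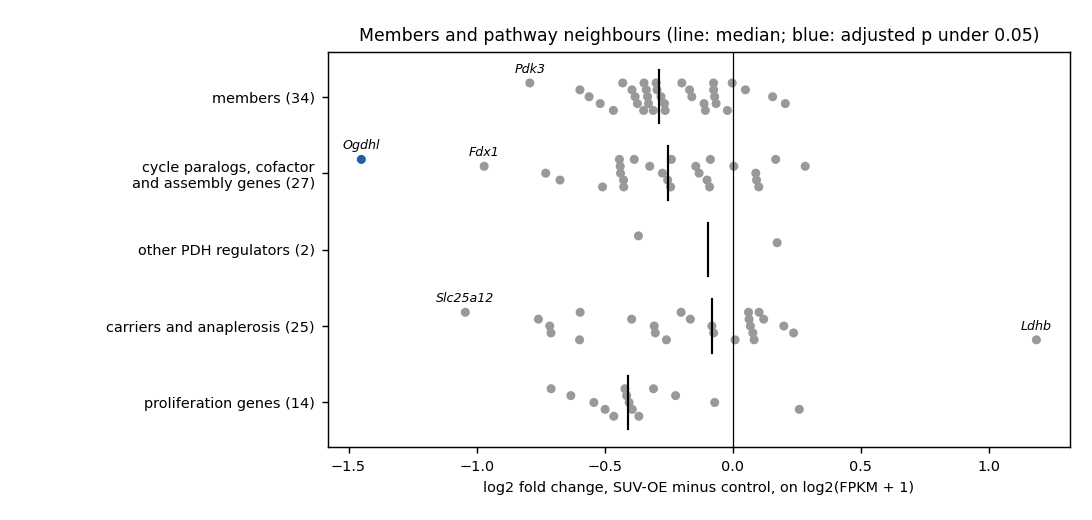
Log2 fold change (SUV-OE minus control) of each tested gene of the members, the 3 neighbour lists and the proliferation list, with lines at the medians and blue for an adjusted p-value under 0.05. Ogdhl is the only blue point, the members have a median of -0.29 and the proliferation genes of -0.41.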

How the data were processed

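The authors prepared TruSeq RNA v2 libraries, a kit that does not mark strand, aligned the reads to mm10 with TopHat2 and deposited gene-level FPKM for each library, for which the paper names Cufflinks. The submitters' processing notes also name CASAVA 1.8, and the annotation release is not given in the sources used here. The authors used DESeq2 for their own comparison, but the deposited unit was FPKM, so the 2 groups of 2 libraries were compared on log2(FPKM + 1) with limma 3.58.1 in R 4.3.3, with group as the only term and the variance moderated with an intensity trend. All 13736 genes averaging 0.5 FPKM or more were fitted and p-values adjusted over them by the Benjamini-Hochberg method. DEG thresholds were those of the paper.

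At GENCODE M21 exon lengths all 4 values of 78.5% of genes were whole reads, within 0.01, among them those of 25 members, and reads of the other 10 members are approximate. These reads, with library divisors inferred from FPKM at those lengths and a mean of at least 10, entered limma-voom as an alternative. The floor, 3 reads on 1 kb of exons, was 0.154 to 0.178 FPKM and covers only counting error. Both fits were run on simulated data with changes larger than any member's and a fixed spread. Such data do not show how well the fits find smaller changes. Gene positions came from GENCODE M21 and promoters from RefSeq (GRCm38.p6).

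The members, gene lists and tests were chosen with earlier results of these data known. All members were named, with the called genes of each neighbour list or, in a list without any, the up to 8 with the smallest p. The alternatives are a pseudocount of 0.1, no filter, a stricter filter at 1 FPKM, scaling by quantiles or by median of ratios, no trend, limma-voom, other thresholds and leaving out each library. Some genes are not reported here.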

Additional observations from a re-analysis of the deposited data

How the results depend on the processing

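The count of 0 members past both thresholds held under each alternative fit, and 1 member (Pdk3) passed at an adjusted p-value under 0.1, a count that was 0 without the filter, 0 with each library left out and 4 by limma-voom (Pdk3, and Me2, Idh3a and Sdhd on approximate reads). Among the neighbours the 1 call became 0 with a pseudocount of 0.1, 0 without the filter, 0 with each library left out and 4 by limma-voom. Quantile normalization moved the members' median to -0.16 and the number in which SUV-OE lay under both controls to 14, and it reversed Pdp1 (-0.057), Ogdh (0.12), Sdhc (0.036), Mdh2 (0.048), Glud1 (0.12) and Acly (0.11). Median-of-ratios scaling reversed Ogdh (0.019). With 1 library left out the members' median ranged from -0.29 to -0.22, and the log2 fold change of Mpc2 from -0.089 to 0.048, of Pdp1 from -0.080 to 0.18, of Ogdh from -0.13 to 0.12, of Glud1 from -0.27 to 0.12 and of Acly from -0.30 to 0.086. The lone library of a group was then assumed to vary like the others. Of the values for single members, 357 kept direction and side of the threshold, 16 reversed and 1, Pdk3 by limma-voom, passed it. The cause of these changes was not tested. No paired analysis was possible because 1 replicate number alone occurs in both groups. Depth limits Me1, at 4 to 18 reads a library, and the SUV-OE values of Ogdhl, at 12 and 14 reads.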
